A study of Mus musculus with 2 samples.

Results

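Histone genes encode the proteins around which DNA is wound in nucleosomes. They were described here from single-cell RNA counts of cultured mouse neural stem cells whose source was the subventricular zone. Members were all genes whose symbol starts with Hist1h, Hist2h, Hist3h or Hist4h, called replication-dependent here, and those starting with H2af, H3f or H1f, called variant. The rule found 85 of 28692 gene entries, 69 replication-dependent and 16 variant. Hist2h2bb is listed on 2 rows, and 1 variant entry, H3f3aos, is an antisense transcript of H3f3a and encodes no histone.

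Core histones H2A, H2B, H3 and H4 form the nucleosome, and linker histone H1 binds the DNA that enters and leaves it. Replication-dependent histone genes lie in clusters of many copies and are transcribed mainly while DNA is copied. Most of their mRNAs end in a conserved stem-loop in place of a poly(A) tail. The stem-loop is bound by SLBP, which guides processing and translation of the mRNA. Variant histones are made throughout the cell cycle from single genes whose mRNAs are polyadenylated, and they replace core histones at particular sites. A kit that primes on poly(A) tails, as 3′ single-cell kits do, therefore sees the replication-dependent genes mostly through polyadenylated forms, and a value below is a level of captured RNA and not of all histone mRNA.

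The cells came from strain C57/Bl6J and were expanded after birth, then given DMSO vehicle or 1 µM of the oxysterol 20HC. They were sequenced on day 3 after EGF and FGF were withdrawn. The labels name 2 libraries, 1 of each kind, and the treatment field of the control library also names 20HC, so its group rests on its title. The counts come as 1 pooled matrix in which each barcode ends in 1 or 2, and neither number is tied to a library. The matrix was therefore treated as 1 sample with no replicates, no control against 20HC comparison was made, and no p-value was computed. Barcodes ending in 1 (set 1) and 2 (set 2) are given side by side without a condition.

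After filtering, 13050 of 14685 barcodes were kept, 9681 in set 1 and 3369 in set 2, with medians of 2829 and 2884 unique molecular identifiers (UMIs) per cell and 38426588 UMIs in all. Among the kept cells, 34 barcode sequences occurred in both sets. Cells were sorted by the UMIs of an S phase list of 34 genes and a G2 and M phase list of 30 genes, neither of which holds a histone gene. S-list cells had at least 3 S UMIs and at least 2 times as many S as G2M UMIs, and G2M-list cells the reverse. Mixed cells had at least 3 UMIs of a list and neither excess, and low-list cells at most 1 UMI of each list. These are ranges of list UMIs and not measured cell cycle phases. They held 2077 S-list, 1258 mixed, 1700 G2M-list and 6252 low-list cells, with median depths of 2786, 3216.5, 3065 and 2667.5 UMIs, and 1763 cells fell between the limits.

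The 3′ ends of the genes are shown first because they bear on which members a poly(A)-primed assay can count. In the GENCODE M21 transcripts (build GRCm38), a stem-loop was searched on the sense strand within 100 bases after the stop codon, as a 16-base pattern (GGNNCTT, then NTN, then AGNNCC, where N is any base) with its inner stem bases paired. It was found in 44 of the 50 replication-dependent genes whose annotation could be searched. Of 13 variant genes, 1 held it, H2afx, and of 21055 other genes, 4 did. Each site below is shown with 5 bases on either side, and capitals mark the 16 bases of the stem-loop.
Hist1h1e: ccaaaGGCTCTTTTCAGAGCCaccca
Hist1h1c: caaaaGGCTCTTTTCAGAGCCaccac
Hist1h2ae: acaaaGGCTCTTTTCAGAGCCattca
Hist2h2ac: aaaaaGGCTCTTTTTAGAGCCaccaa
Hist3h2a: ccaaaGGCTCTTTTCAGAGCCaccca
Hist3h2ba: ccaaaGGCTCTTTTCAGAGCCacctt
Hist1h4d: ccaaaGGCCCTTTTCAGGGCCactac
Hist1h4i: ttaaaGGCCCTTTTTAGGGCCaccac
H2afx: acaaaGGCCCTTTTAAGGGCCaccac
The stem opened with GGCT in all 4 H1, 11 H2A, 8 H2B and 9 H3 genes that had a site. In the H4 genes it opened with GGCC in 10 and GGTC in 2, and the H2afx site opened with GGCC. All 8 replication-dependent sites shown sit in transcripts that the annotation carries on beyond the stem-loop, by 57 bases in Hist2h2ac up to 1643 in Hist3h2a, and by 1153 in Hist1h1e. The H2afx transcript runs 822 bases past its site. Hist1h4h, an H4 gene also named below, has a site that is not shown, and its annotated transcript ends 46 bases after it.

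Replication-dependent members differed in how often they were counted by the annotated 3′ end. Of the 25 members with a stem-loop and at least 50 annotated bases after it, 14 (56%) had at least 30 UMIs over the kept cells, and they held 47.5% of the 21883 replication-dependent UMIs. Among the 19 whose annotation ends near the stem-loop, 4 (21.1%) had at least 30 UMIs, and these 19 held 1.52% of the UMIs. Of the remaining 25 members, 6 had no stem-loop found and held 34.1% of the UMIs, mostly Hist1h2bc. A further 15 had annotation ending before a site could lie and held 15.7%, mostly Hist1h1b, and 4 had no transcript with a stop codon and held 1.19%. Annotated ends are not ends measured in these cells, and the role of the 3′ end in these counts was not tested.

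Counts were concentrated in few members. Of the 69 replication-dependent members, 15 had no UMI, 41 had 1 to 99 with 810 UMIs together, and 13 had at least 100. The H2B gene Hist1h2bc alone held 31.6% of the replication-dependent UMIs, the linker genes Hist1h1b and Hist1h1e 15.4% and 15.1%, and the H2B gene Hist3h2ba 11.1%. By family, H2B genes held 44.2% and H1 genes 36.9%, but H2A 13.8%, H4 4.42% and H3 0.699%. These are shares of captured UMIs and not levels per length. Of the 16 variant members, 10 had at least 100 UMIs, and H3f3b (32.7%), H2afz (29.7%), H3f3a (20.0%) and H2afv (11.9%) held most of the 273059 variant UMIs. The other 6 were H3f3aos with 7 UMIs, H2afb1 and the oocyte linker H1foo with 1 each, and H2afb2, H2afb3 and the spermatid linker H1fnt with 0. A count of 0 allows up to 3 counts in these cells.

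Both groups were higher in cells with S or G2M UMIs, but with different profiles. In CPM (UMIs of a gene or group per 1e+06 UMIs of the cells summed), replication-dependent members stood at 347 in low-list, 660 in S-list, 1308 in mixed and 797 in G2M-list cells. Set 1 gave 347, 657, 1285 and 799, and set 2 gave 348, 666, 1376 and 789. Both sets thus placed the highest level in mixed cells. Variant members stood at 3554, 8114, 13500 and 15435, highest in G2M-list cells. Against low-list cells the replication-dependent sum was 1.90-fold in S-list (95% interval 1.82 to 1.98), 3.76-fold in mixed (3.63 to 3.91) and 2.29-fold in G2M-list cells (2.21 to 2.39). The variant sum was 2.28-fold (2.26 to 2.31), 3.80-fold (3.75 to 3.84) and 4.34-fold (4.30 to 4.39). These 3 comparisons share the low-list cells. Intervals are exact and cover counting error only, since cells of 1 sample are not replicates. From mixed to G2M-list cells the groups went opposite ways, the mixed level being 1.64 times the G2M-list level for replication-dependent members (1.58 to 1.71) and 0.875 times for variant members.

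The groups of cells differed in their classes, which are described further on. Of the 6252 low-list cells, 4135 were astrocyte-like, 1364 neural progenitor-like and 0 cycling-like, whereas of the 1700 G2M-list cells 657 were cycling-like, 634 were in the unnamed cluster 4 and 101 were astrocyte-like. A ratio over low-list cells therefore also compares classes, and the part of each was not tested. The markers that name cycling-like cells are all genes of the S or G2M list. Their lack of low-list cells thus follows largely from how the class and the groups were defined. Values within a class stand beside such ratios here. In OPC-like cells, with 99 low-list, 147 S-list, 104 mixed and 169 G2M-list cells, replication-dependent H1 was 69.8, 131, 458 and 385 CPM, and the variant sum 4422, 5991, 8162 and 10883. In astrocyte-like cells replication-dependent H1 was 28.8, 23.3, 55.1 and 31.3 CPM and the variant sum 3379, 3500, 4145 and 3858. In neural progenitor-like cells they were 34.2, 54.2, 163 and 86.0 CPM, and 4079, 5102, 6187 and 6817. The order over the groups thus held in OPC-like and neural progenitor-like cells for both sums. In astrocyte-like cells both sums were highest in mixed cells, and the differences were smaller than in those classes. Astrocyte-like cells counted as S-list or G2M-list had medians of 3 S UMIs and 3 G2M UMIs, near the limit, against 9 and 36 in OPC-like cells.

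**Figure D1:**
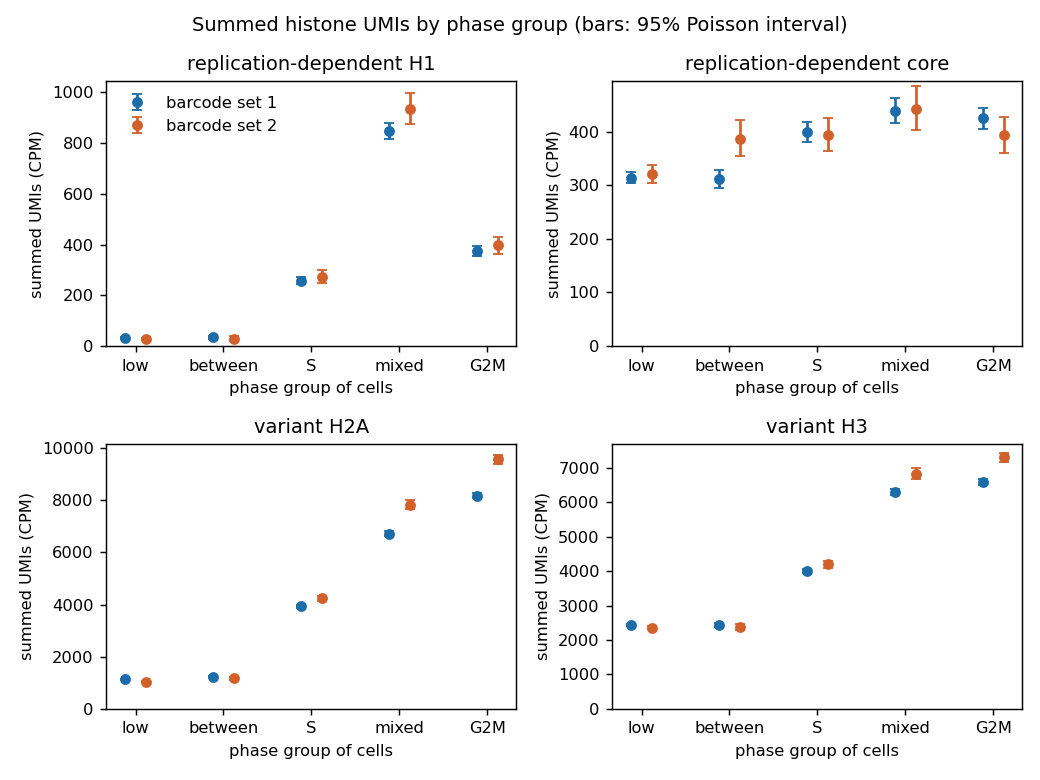
Summed CPM of replication-dependent H1, replication-dependent core, variant H2A and variant H3 genes (linear axes from 0) against the group of cells, for barcode set 1 (blue) and set 2 (orange), with exact Poisson 95% intervals. In replication-dependent H1 the mixed cells are highest, at 846 in set 1 and 934 in set 2, while variant H2A and H3 are highest in G2M-list cells.

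The change in the summed replication-dependent UMIs lay mainly in linker histone. Replication-dependent H1 genes summed to 31.4 CPM in low-list, 262 in S-list, 868 in mixed and 380 in G2M-list cells, which is 8.33-fold (7.55 to 9.20), 27.6-fold (25.2 to 30.3) and 12.1-fold (11.0 to 13.3) over low-list cells. The replication-dependent core genes summed to 316, 398, 440 and 416 CPM, or 1.26-fold, 1.39-fold and 1.32-fold. Within the core the families differed: H3 went from 1.54 to 13.4 CPM between low-list and mixed cells, H4 from 12.5 to 53.2 and H2A from 65.9 to 144, while H2B was 236 and 229. Hist1h2bc weighs on these sums, as do Hist3h2ba and Hist3h2a, whose levels are given below, so the core sum does not stand for each core gene. Without Hist1h2bc, a calculation added after the values were seen, the replication-dependent ratio over low-list cells was 2.70 in S-list, 7.01 in mixed and 3.76 in G2M-list cells.

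Shares of cells gave the same order. A replication-dependent H1 UMI was seen in 7.89% of low-list (exact Clopper-Pearson 95% interval 7.23 to 8.58), 33.4% of S-list, 68.7% of mixed (66.04 to 71.2) and 41.4% of G2M-list cells. With each cell thinned to 2000 UMIs, leaving out 1553 low-list, 276 S-list, 142 mixed and 277 G2M-list cells that were shallower, the shares were 6.17%, 28.5%, 65.1% and 36.3%. The low-list share serves as the background here, since no class in the culture is known to lack linker histone. Any replication-dependent UMI was seen in 52.0%, 69.4%, 86.6% and 72.5% of the same groups, and 57 of the 13050 kept cells had no variant UMI.

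Of the members with at least 100 UMIs, 2 linker genes of the Hist1 cluster on chromosome 13, Hist1h1b and Hist1h1a, showed the widest range. Hist1h1b, a somatic linker histone gene at chr13:21779883-21780625 (minus strand), had 29 UMIs or 1.71 CPM in low-list cells, against 119 in S-list, 416 in mixed and 153 in G2M-list cells. Its values in set 1 were 1.87, 114, 390 and 141, and in set 2 1.30, 134, 496 and 188. The sets gave the same order, and each of the S-list, mixed and G2M-list levels lay far above both low-list levels. The ratio over low-list cells was 69.5 in S-list (48.0 to 105), 242 in mixed (168 to 363) and 89.4 in G2M-list cells (61.8 to 134), and the mixed level was 2.71 times the G2M-list level (2.50 to 2.95). Within OPC-like cells Hist1h1b had no UMI in low-list cells and 69.5, 200 and 152 CPM in S-list, mixed and G2M-list cells. Within astrocyte-like cells it had 1.69, 3.98, 23.9 and 10.4 CPM, the last 3 from 7, 10 and 4 UMIs. Cluster 4 differed, with 9.54, 9.78 and 47.7 CPM in S-list, mixed and G2M-list cells, from 4, 5 and 80 UMIs. Mixed cells were thus not highest there.

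Hist1h1a, another linker gene of the cluster at chr13:23763666-23764406 (plus strand), had 2 UMIs in low-list cells (0.118 CPM), 1 set being at 0, and 16.3, 59.9 and 20.955 CPM in S-list, mixed and G2M-list cells. The mixed ratio of 507 carries an interval of 139 to 4206. Hist1h1e (chr13:23620629-23622558, minus strand), an abundant linker gene in somatic tissue, had 17.4 CPM in low-list, 94.0 in S-list, 346 in mixed and 160 in G2M-list cells. Set 1 gave 18.7, 95.7, 354 and 166 and set 2 gave 14.1, 89.2, 322 and 142, with mixed cells highest in both. Its low-list level was not near 0, and its ratios of 5.39, 19.8 and 9.18 were smaller than those of Hist1h1b. Hist1h1e shares bases with Hist1h2be and Gm11398 on the same strand in the annotation, so its reads may include theirs.

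Hist1h1c (chr13:23738808-23740367, plus strand), the linker gene that many nondividing cells also express, had the flattest profile of these 4. Its level was 12.1 CPM in low-list, 29.98 in S-list, 38.4 in mixed and 41.7 in G2M-list cells, and its G2M-list level was 46.4 in set 1 and 28.2 in set 2. The ratios were 2.48, 3.17 and 3.44 (low-list level 12.1 in either set). In S-list, mixed and G2M-list cells it had 40.7, 35.9 and 28.5 CPM within cycling-like cells and 107, 72.4 and 69.2 within cluster 4. Neural progenitor-like cells had 14.6, 44.4 and 25.8, from 11, 6 and 6 UMIs. G2M-list cells were thus not highest within these classes. Hist1h1d, named after its values were seen, had 1 UMI in low-list cells and 8.11 CPM in mixed cells, a ratio of 137 with an interval of 23.0 to 5578.

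**Figure D2:**
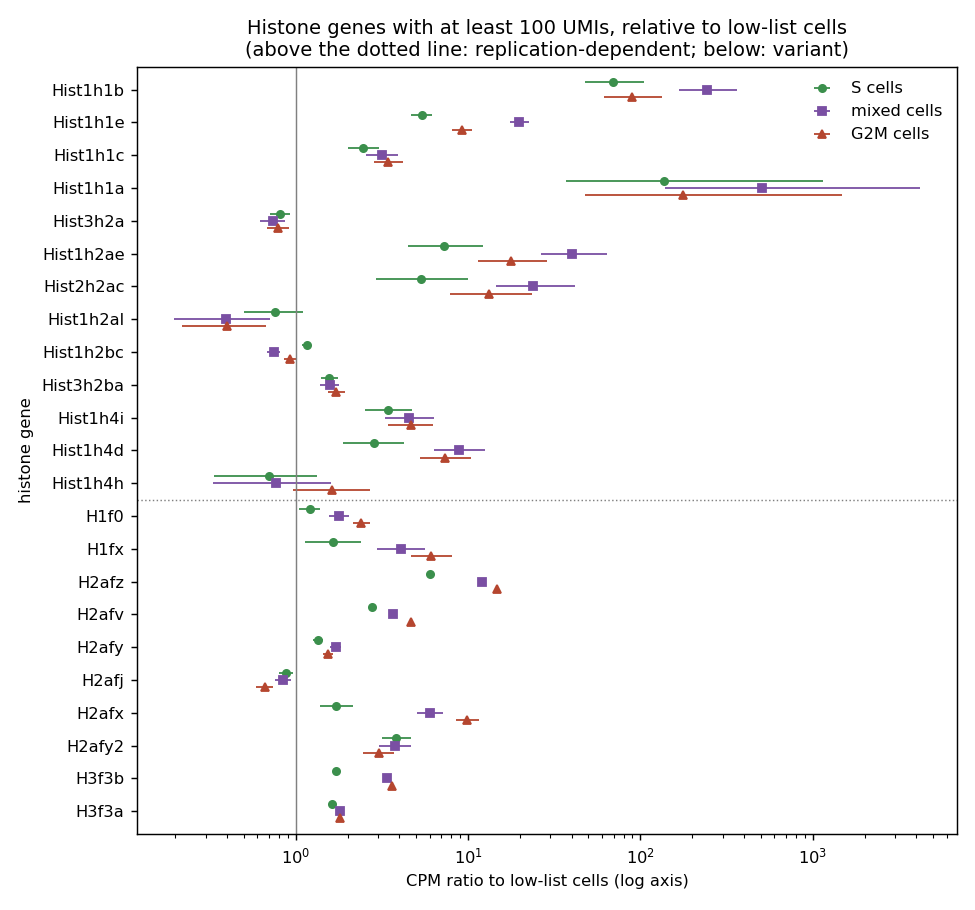
CPM ratio to low-list cells (log axis) of each member with at least 100 UMIs, in S-list (green), mixed (purple) and G2M-list cells (red), with 95% intervals for counting error. Hist1h1b and Hist1h1a lie farthest to the right, with mixed ratios of 242 and 507, and Hist1h2bc, Hist3h2a, Hist1h2al, Hist1h4h and H2afj have mixed ratios under 1.

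The promoters of these 4 linker genes are shown because they lie in the same cluster and their profiles over all kept cells differed. Hist1h1b, Hist1h1a and Hist1h1e were highest in mixed cells, though not within cluster 4. Hist1h1c was highest in G2M-list cells, though not within the classes given for it above. In S-list, mixed and G2M-list cells of cluster 4, Hist1h1e had 45.3, 60.7 and 66.2 CPM, and Hist1h1a had 3, 0 and 8 UMIs. The 150 bases before the annotated start come from RefSeq, build GRCm38.p6, and are written 5′ to 3′ on the gene's strand. Capitals mark AAACACA (the H1 box), CCAAT and TATAAA, each searched on both strands, so CCAAT on the other strand appears as ATTGG. H2afz is added as the variant gene with the widest range.
Hist1h1b, chr13:21780626-21780775, minus strand: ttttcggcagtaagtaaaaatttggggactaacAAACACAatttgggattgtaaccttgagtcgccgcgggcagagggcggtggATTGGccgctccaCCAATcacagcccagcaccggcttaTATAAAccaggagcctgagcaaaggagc
Hist1h1a, chr13:23763518-23763667, plus strand: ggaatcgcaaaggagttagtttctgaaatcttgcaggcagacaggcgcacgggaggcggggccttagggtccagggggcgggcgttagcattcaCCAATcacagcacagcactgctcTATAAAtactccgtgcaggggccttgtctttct
Hist1h1e, chr13:23622559-23622708, minus strand: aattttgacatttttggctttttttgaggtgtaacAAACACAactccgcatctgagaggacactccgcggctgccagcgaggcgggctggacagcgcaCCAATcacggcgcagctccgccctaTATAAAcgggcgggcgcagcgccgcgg
Hist1h1c, chr13:23738657-23738806, plus strand: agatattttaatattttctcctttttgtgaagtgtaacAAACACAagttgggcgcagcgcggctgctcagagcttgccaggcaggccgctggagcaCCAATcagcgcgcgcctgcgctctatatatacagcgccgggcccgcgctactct
H2afz, chr3:137864337-137864486, plus strand: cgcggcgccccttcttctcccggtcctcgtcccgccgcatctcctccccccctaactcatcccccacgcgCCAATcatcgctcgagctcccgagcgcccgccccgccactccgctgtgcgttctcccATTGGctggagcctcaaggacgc
All 5 hold CCAAT. The H1 box is in 3 of these 4 linker promoters and not in that of Hist1h1a, and TATAAA is in 3 and not in that of Hist1h1c. No match says only that those letters are not in the window, and these letters do not follow the order of the levels.

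Over the longer window of 250 bases before to 50 after the start, CCAAT was in 51 of 60 replication-dependent promoters (85%), in 9 of 14 variant promoters (64.3%) and in 37.9% of all 27025 promoters. By family it was in all 6 H1, 17 H2A, 15 H2B and 10 H3 promoters and in 3 of 12 H4 promoters. The H1 box was in 5 of 6 H1 promoters and in 7.14% of all. The octamer ATTTGCAT, the binding letters of POU factors, was in 7 of 17 H2A and 6 of 15 H2B promoters and in 1.75% of all. TATAAA was in 58.3% of replication-dependent promoters, 1 of 14 variant promoters and 14.2% of all, and TTTGAA, the letters of the cell cycle element CHR, was in 43.3% and 3 of 14, against 18.1% of all. None of these matches is a measured binding site.

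Among replication-dependent core genes, several low-abundance members were many times higher outside low-list cells when all kept cells were summed. Hist1h2ae, an H2A gene, had 24 UMIs in low-list cells (1.42 CPM, with 0 in set 2), and 10.3, 57.2 and 25.1 CPM in S-list, mixed and G2M-list cells, a mixed ratio of 40.4 (26.5 to 64.2). Hist2h2ac, an H2A gene of the chromosome 3 cluster, had 1.06, 5.64, 25.5 and 14.1 CPM, a mixed ratio of 24.0 (14.5 to 42.0). In both, mixed cells exceeded G2M-list cells, by 2.28 and 1.81 times. Within classes, in the same order, Hist1h2ae had 1.45, 1.71, 0 and 0 CPM in astrocyte-like and 1.68, 1.32, 0 and 0 in neural progenitor-like cells. The 0 in mixed cells allows up to 7.18 and 22.2 CPM in these classes. In OPC-like cells it had 0, 1.99, 34.1 and 26.0 CPM, from 0, 1, 14 and 16 UMIs. The H4 gene Hist1h4d had 3.01, 8.54, 26.7 and 22.0 CPM. Within astrocyte-like cells Hist2h2ac had 1.12, 0, 2.39 and 2.61 CPM, the last 3 from 0, 1 and 1 UMIs. Hist1h4d there had 2.89, 2.84, 0 and 7.82 CPM, the last 3 from 5, 0 and 3 UMIs. Within OPC-like cells Hist2h2ac had 0, 3.97, 14.6 and 8.11 CPM and Hist1h4d 3.88, 3.97, 12.2 and 19.5. The H4 gene Hist1h4i had 4.43, 15.3, 20.3 and 20.6 CPM and no peak in mixed cells, with mixed levels of 16.7 in set 1 and 31.2 in set 2. The H3 genes Hist1h3c and Hist1h3b, named after their values were seen, had no UMI in low-list cells. Against a floor of 3 counts they were at least 40.4-fold and 21.5-fold higher in mixed cells.

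The most counted core genes among the replication-dependent members behaved otherwise. Hist1h2bc (chr13:23684199-23692908, plus strand), an H2B gene for which no stem-loop was found, had 180 CPM in low-list, 208 in S-list, 134 in mixed and 167 in G2M-list cells. In set 1 its levels were 175, 207, 132 and 171, and in set 2 192, 211, 142 and 155. Mixed cells were lowest in both sets, and the mixed level was 0.645 times the S-list level (0.583 to 0.712). Hist3h2a, an H2A gene of the chromosome 11 cluster, had 54.8, 44.5, 40.5 and 43.5 CPM and passed the rule in no comparison with low-list cells. It overlaps Trim17 on the same strand. Its neighbour Hist3h2ba, an H2B gene, had 50.5, 79.2, 79.7 and 86.9 CPM, with ratios of 1.57, 1.58 and 1.72.

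Hist1h4h, an H4 gene, had 2.78, 1.94, 2.15 and 4.52 CPM, lower in S-list than in G2M-list cells (0.428). This rests on few cells, with a UMI in 12 S-list (0.578%, 0.299 to 1.01) and 15 G2M-list cells (0.882%, 0.495 to 1.45). Of its G2M-list UMIs, 11 came from the 79 neural progenitor-like cells. Over all kept cells Hist1h2al, annotated as a processed pseudogene, went the other way, with 7.27, 5.48, 2.86 and 2.89 CPM. Its low-list level was 9.59 in set 1 and 1.08 in set 2, so its counts rest mostly on set 1. Astrocyte-like cells held 100 of its 123 low-list UMIs, and no such fall was seen within them. There Hist1h2al had 8.03, 13.6, 11.974 and 10.4 CPM, the last 3 from 24, 5 and 4 UMIs. Neural progenitor-like cells had 7.05, 3.97, 0 and 4.298 CPM, from 21, 3, 0 and 1 UMIs. The median gene of all had a log2 ratio to low-list cells of -0.16 in S-list, -0.30 in mixed and -0.31 in G2M-list cells, and scaling to that gene in place of total UMIs raises every ratio by as much. With it, Hist1h2bc in G2M-list against low-list cells went from 0.928 to 1.15, which turns its direction, and Hist3h2a from 0.794 to 0.983. Replication-dependent copies are near-identical in sequence, so reads may be split or dropped between them, and no source used here gives the strand setting of the counting.

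H2afz, an H2A.Z gene, had the highest ratios of the variant group. H2A.Z replaces H2A around transcription start sites and at centromeric chromatin. H2afz, at chr3:137864487-137866922 (plus strand), had 421 CPM in low-list, 2544 in S-list, 5057 in mixed and 6206 in G2M-list cells. In set 1 it had 418, 2446, 4795 and 5844, and in set 2 430, 2824, 5868 and 7256. Both sets stepped up in the same order. The ratios over low-list cells were 6.04 (5.88 to 6.21), 12.01 (11.7 to 12.3) and 14.7 (14.4 to 15.1). Within OPC-like cells H2afz was 725, 2080, 3510 and 4956 CPM, and within neural progenitor-like cells 530.5, 1130, 1939 and 2046. Within astrocyte-like cells it was 374, 442, 857 and 563 CPM, highest in mixed and not in G2M-list cells. H2afv, the other H2A.Z gene, had 401, 1109, 1468 and 1869 CPM, with ratios of 2.77, 3.66 and 4.66.

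H2afx, whose protein is phosphorylated around DNA double-strand breaks, is the variant gene that holds the stem-loop shown above. Its level was 12.8 CPM in low-list, 22.1 in S-list, 77.3 in mixed and 127 in G2M-list cells. The S-list level was 25.1 in set 1 and 13.6 in set 2, against low-list levels of 13.4 and 11.2. Its ratios were 1.72 (1.38 to 2.14), 6.03 and 9.89 (8.48 to 11.6), and its mixed level was 0.609 times its G2M-list level. Over all kept cells its profile was thus the reverse of that of Hist1h1b between these groups. In low-list, S-list and G2M-list cells, H2afx had 12.9, 11.4 and 13.0 CPM within astrocyte-like and 14.4, 14.6 and 25.8 within neural progenitor-like cells. Those G2M-list values rest on 5 and 6 UMIs. Within OPC-like cells it had 7.75, 13.9 and 110 CPM, from 2, 7 and 68 UMIs.

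The macroH2A genes, whose proteins carry a large extra domain and mark silent chromatin, differed from each other. H2afy2 had 11.2 CPM in low-list and 42.9, 42.2 and 34.0 in S-list, mixed and G2M-list cells, a flat profile above a low base, with ratios of 3.84 (3.17 to 4.65), 3.78 and 3.04. Within astrocyte-like cells it had 9.88, 18.2 and 7.82 CPM in low-list, S-list and G2M-list cells. It had 14.8, 26.5 and 17.2 in neural progenitor-like and 34.9, 49.7 and 35.7 in OPC-like cells. These G2M-list values were near the low-list ones and rest on 3, 4 and 22 UMIs. H2afy had 150, 203, 255 and 230 CPM, with ratios of 1.35, 1.70 and 1.53. H2afy2 overlaps Aifm2 on the opposite strand. H2afj, a replacement H2A gene, was the one measured variant gene that was lower, at 106, 92.9, 89.2 and 69.7 CPM, with a G2M-list ratio of 0.661 (0.590 to 0.738). Under median scaling that ratio was 0.818 and the mixed ratio turned from 0.845 to 1.04. Within 3 classes with low-list and G2M-list cells no such drop was seen, with 106 CPM in low-list and 115 in G2M-list astrocyte-like cells, 108 and 116 in neural progenitor-like cells, and 81.4 and 81.1 in OPC-like cells.

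H3f3a and H3f3b encode the same replacement H3, which is laid down outside replication. H3f3b had 1324 CPM in low-list, 2281 in S-list, 4466 in mixed and 4803 in G2M-list cells, with ratios of 1.72 (1.69 to 1.76), 3.37 and 3.63. H3f3a had 1084, 1763, 1954 and 1971 CPM, with ratios of 1.63, 1.80 and 1.82. S-list over G2M-list was 0.475 for H3f3b and 0.894 for H3f3a. Within classes H3f3a was nearly level from low-list to G2M-list cells, at 1044 and 983 CPM in astrocyte-like, 1193 and 1319 in neural progenitor-like and 1430 and 1272 in OPC-like cells. H3f3b was 1243 and 1426, 1551 and 1883, and 1578 and 2946 in the same classes. H3f3a overlaps H3f3aos and Gm17275 on the opposite strand. Of the variant linkers, H1f0, known from nondividing and differentiated cells, had 40.0, 48.2, 71.6 and 96.3 CPM, a G2M-list ratio of 2.41 (2.14 to 2.70). H1fx had 4.79, 7.90, 19.6 and 29.3 CPM, with ratios of 1.65, 4.09 and 6.11. From low-list to G2M-list cells, H1f0 had 41.1 and 75.6 CPM in astrocyte-like, 40.0 and 38.7 in neural progenitor-like and 19.4 and 101 in OPC-like cells. H1fx had 5.62 and 5.21, 3.02 and 8.60, and 3.88 and 17.8 CPM in the same classes. Its G2M-list values there rest on 2, 2 and 11 UMIs.

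A gene was called higher or lower when it had at least 30 UMIs in the compared cells, differed by at least 1.5-fold over all compared cells and in the same direction, by any amount, in each set, and had a comparison level outside the first group's Poisson interval. In S-list against low-list cells, 10 of 69 replication-dependent members (16 measured) and 7 of 16 variant members (10 measured) were called higher and none lower, beside 13.6% of all measured genes higher and 23.5% lower. In mixed against low-list cells, 12 replication-dependent (19 measured) and 9 variant members were higher and none lower, beside 16.2% and 35.1% of all. In G2M-list against low-list cells (16 and 10 measured), 9 and 9 were higher and 1 and 1 lower (Hist1h2al and H2afj), beside 15.7% and 37.4%. With at least 2-fold in place of 1.5-fold, or at least 2 list UMIs in place of 3, the variant count in S-list cells fell to 3.

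Median log2 ratios over the measured members weigh each measured member alike. They were 0.94 for replication-dependent and 0.72 for variant members in S-list against low-list cells, beside -0.15 for all genes. In mixed against low-list cells they were 1.97 and 1.79 beside -0.30, and in G2M-list against low-list cells 1.24 and 1.69 beside -0.31. A member counts as measured partly through the cells where it is high, so these medians describe the measured members and not all 85.

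Set directly against each other, S-list and G2M-list cells gave lower calls for 6 of 69 replication-dependent members (16 measured) and a higher call for Hist1h2al. This stands beside 20.5% of all measured genes higher and 6.22% lower. The 6 were Hist1h1e, Hist1h2ae, Hist1h4d, Hist2h2ac, Hist1h1d and Hist1h4h, the last with UMIs in few cells. Of 16 variant members (10 measured), 6 were lower (H3f3b, H2afz, H2afv, H1f0, H2afx and H1fx) and 0 higher. The summed ratios of the 2 groups were 0.828 (0.793 to 0.864) and 0.526 (0.520 to 0.531). Mixed against G2M-list cells split the groups further: 7 replication-dependent members (15 measured) were higher and none lower. Among variant members (10 measured) none was higher and H2afx was lower, beside 5.59% and 4.62% of all measured genes. The 7 were Hist1h1b, Hist1h1e, Hist1h2ae, Hist1h1a, Hist2h2ac, Hist1h1d and Hist1h2ap. Mixed against S-list cells gave 9 replication-dependent members (15 measured) higher and Hist1h2bc lower. There 4 variant members (10 measured) were higher, beside 4.91% and 14.1% of all measured genes.

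Splitting cells by the UMIs of each list separated the profiles further. Among cells with at least 20 S UMIs, Hist1h1b stood at 51.6 CPM with 0 to 1 G2M UMIs (29 cells), 203 with 2 to 4 (124 cells), 345 with 5 to 9, 578 with 10 to 19 and 522 with at least 20 (786 cells). With at least 20 G2M UMIs but 2 to 4 S UMIs (128 cells) it was 43.4. Hist1h1b was therefore high where both lists were high. Hist1h2bc moved the opposite way among cells with at least 20 S UMIs, from 361 through 304, 176 and 120 to 59.7 CPM, whereas with 2 to 4 S UMIs it was 195, 260, 352, 413 and 307. H2afx at 2 to 4 S UMIs stood at 12.3, 13.7, 16.2, 40.0 and 157 CPM, and at 20 or more S UMIs at 51.6, 23.2, 42.3, 66.8 and 124. H2afz was already at 4557 CPM with at least 20 S UMIs and 0 to 1 G2M UMIs, and went from 515 to 7395 along the G2M list at 2 to 4 S UMIs. Classes differ along these ranges too. S-list astrocyte-like cells had medians of 3 S and 0 G2M UMIs. G2M-list cells had 5 and 26 in cluster 4 and 15 and 71 in cycling-like cells. The part of class in these profiles was not tested.

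**Figure D3:**
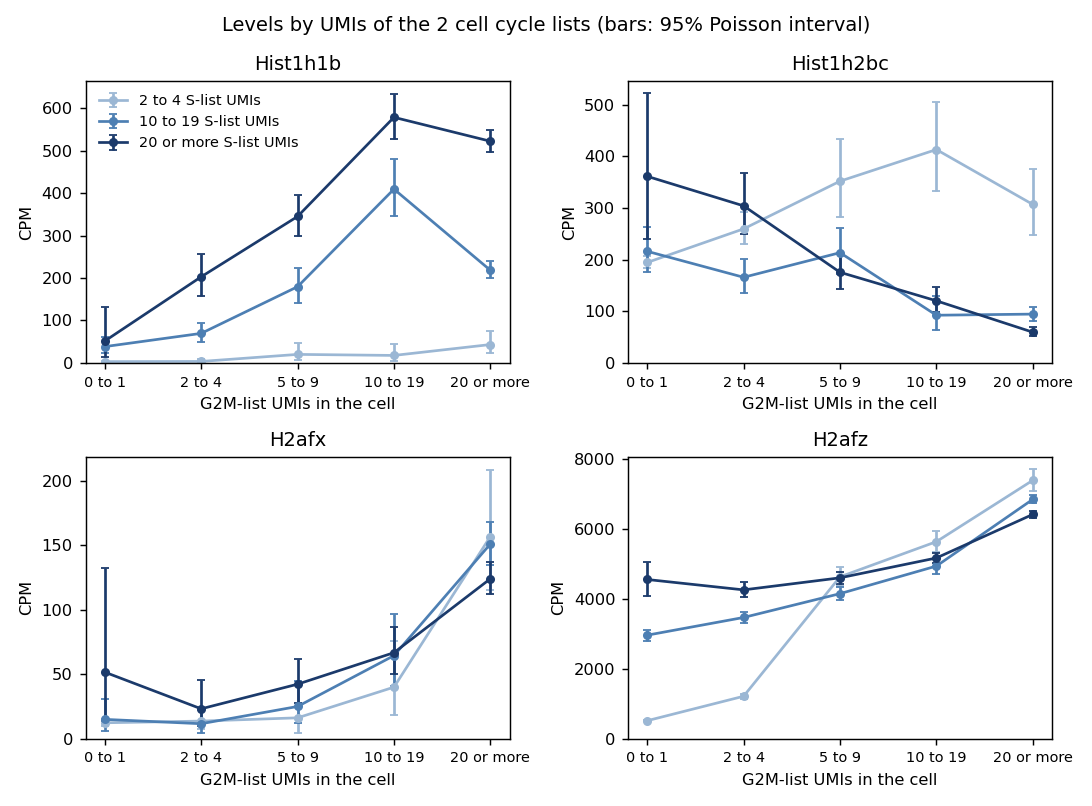
CPM of Hist1h1b, Hist1h2bc, H2afx and H2afz (linear axes from 0) against the G2M list UMIs in the cell, with a line each for cells with 2 to 4, 10 to 19 and 20 or more S list UMIs and Poisson 95% intervals. On the darkest line, 20 or more S UMIs, Hist1h1b climbs to 578 while Hist1h2bc drops from 361 to 59.7.

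Clusters, made without the histone genes, were named from marker lists. All markers of the cycling-like class belong to the S or G2M list, so its levels are not separate from those of the list groups. They gave astrocyte-like (6008 cells), cycling-like (2396), neural progenitor-like (2089), OPC-like (oligodendrocyte precursor, 550), fibroblast-like (223), ependymal-like (123) and microglia-like cells (36), and the unnamed clusters 4 (1103) and 7 (522). Cluster 0, part of the astrocyte-like class, is led by Agt but also by Stmn2 and C1ql1, which are markers of other classes. Cluster 4 is led by Cenpa, Pttg1 and Cdc20 and carries 10 of 11 neuroblast markers, and cluster 7 has a median of 1093.5 UMIs per cell. Class values are descriptions, with no test.

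Replication-dependent H1 summed to 826 CPM in cycling-like cells, 274 in OPC-like cells and 177 in cluster 4, and to 28.1 in astrocyte-like cells. Hist1h1b ran from 395 in cycling-like and 113 in OPC-like cells to 2.82 in astrocyte-like cells, with no UMI in ependymal-like cells. H2afz was at 6386 CPM in cluster 4, 6001 in cycling-like, 3110 in OPC-like and 1295 in fibroblast-like cells, and at 392 in astrocyte-like cells. Cluster 4 was thus close to cycling-like cells in H2afz and far under them in Hist1h1b. Hist1h2bc had its highest level in ependymal-like cells, 461 CPM (395 to 535), followed by cluster 4 at 301, with cycling-like cells at 131 and fibroblast-like cells at 64.9. Hist1h1c was highest in cluster 4 (76.3) and microglia-like cells (74.0) and was 9.70 in astrocyte-like cells. Hist3h2ba was at 116 CPM in cluster 4 and 94.6 in cycling-like cells and had no UMI in microglia-like cells. H1f0 was at 83.3 CPM in cycling-like and 73.8 in cluster 4 cells and at 15.04 in cluster 7, and H2afy2 at 49.4 in cycling-like cells and 10.5 in astrocyte-like cells.

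**Figure D4:**
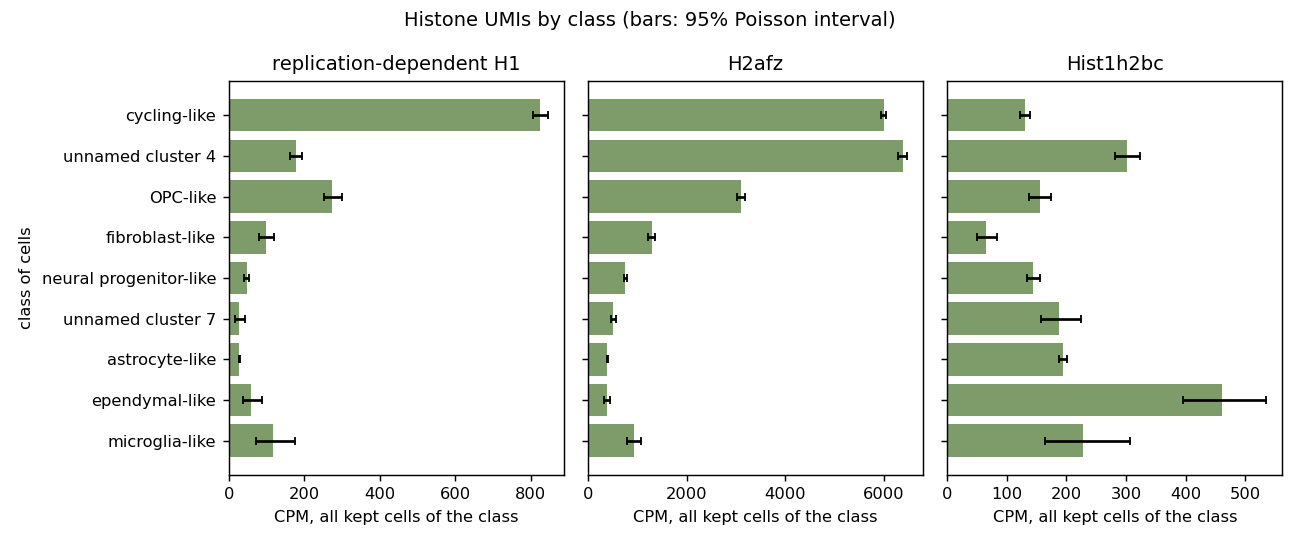
CPM of replication-dependent H1, H2afz and Hist1h2bc (linear axes from 0) over all kept cells of each class, as bars with Poisson 95% intervals. Cycling-like cells are highest in replication-dependent H1 at 826, cluster 4 in H2afz at 6386, and ependymal-like cells in Hist1h2bc at 461.

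Cycling-like cells and cluster 4 were then compared among G2M-list cells alone, a comparison added after the class values were seen. The 657 cycling-like cells were deeper (median 3530 against 2294 UMIs in 634 cluster 4 cells) and richer in both lists, with medians of 15 S and 71 G2M UMIs against 5 and 26. Of 69 replication-dependent members (11 measured), 6 were higher in cycling-like cells and 3 lower, beside 7.9% and 10.3% of all genes. The higher ones were Hist1h1b (276 against 47.7 CPM), Hist1h1e (272 against 66.2), Hist1h1a (42.9 against 4.77), Hist1h4d, Hist1h2ae and Hist2h2ac, by 4.12 to 8.998 times. The lower ones were Hist1h2bc (84.2 against 278), Hist1h1c (28.5 against 69.2) and Hist1h4i (15.3 against 31.0). Of 16 variant members, H2afx (179 against 108), H3f3b and H1f0 were higher and none lower, and H2afz was 7871 against 6802. List UMIs and depth moved with these differences, and their part was not tested.

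Classes were also compared among low-list cells, for the 3 with at least 200 such cells. Astrocyte-like cells (4135) against the other low-list cells (2117) gave a ratio of 0.962 for the replication-dependent and 0.836 for the variant sum. Hist1h2al (8.03 against 5.14 CPM) and H1fx (5.62 against 2.46) were called higher, and Hist3h2ba (44.4 against 67.5), Hist1h4h (2.17 against 4.47) and Hist1h1c (10.5 against 16.5) lower, beside 17% of all genes higher and 8.32% lower. Neural progenitor-like cells (1364) had Hist3h2ba higher, 73.2 against 45.7 CPM, and no other member called, beside 5.26% higher and 12.5% lower. Cluster 7 (436 cells) had H2afy (72.4 against 152), H1f0 (11.1 against 41.0) and H2afy2 lower, beside 2.63% and 29.6%, and its low depth moved with these values.

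Between the barcode sets, whose conditions are unknown, H2afj had the widest gap of the variant genes in low-list cells. H2afj (chr6:136808244-136810074, plus strand) had 128 CPM in set 1 and 44.6 in set 2 among low-list cells, a ratio of 2.88 (2.49 to 3.35). The ratio was 3.70 in S-list, 3.13 in mixed and 2.75 in G2M-list cells, so set 1 was higher in each group. Within classes, low-list astrocyte-like cells had 130 against 43.9 CPM (2.95, 2.49 to 3.52) and neural progenitor-like cells 131 against 53.8 (2.43). In low-list cells, 41 of 11796 measured genes had a ratio at or above that of H2afj. Here a call needed 1.5-fold and a level beyond the Poisson interval: in low-list cells Hist1h2al (8.87, 3.70 to 27.8) and H2afj were higher in set 1 and no member lower, beside 4.04% and 3.15% of all genes.

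In the other groups, calls between sets were few and split. S-list cells had Hist1h2al, Hist2h2ac, H1fx, H2afj and H2afx higher in set 1 and Hist1h1a and Hist1h4i lower, beside 7.55% and 3.69% of all. Mixed cells had Hist1h2ae, Hist1h2ap, Hist1h3c and H2afj higher and Hist1h4d and Hist1h4i lower, beside 12.6% and 3.83%. G2M-list cells had Hist1h1c, Hist1h2ae, Hist2h2ac and H2afj higher and Hist1h1a and Hist1h4i lower, beside 13.6% and 3%. Hist1h1b was 0.786 in mixed and 0.751 in G2M-list cells, and H2afz 0.805 in G2M-list cells, all short of the threshold. Library and treatment cannot be told apart in these values.

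**Figure D5:**
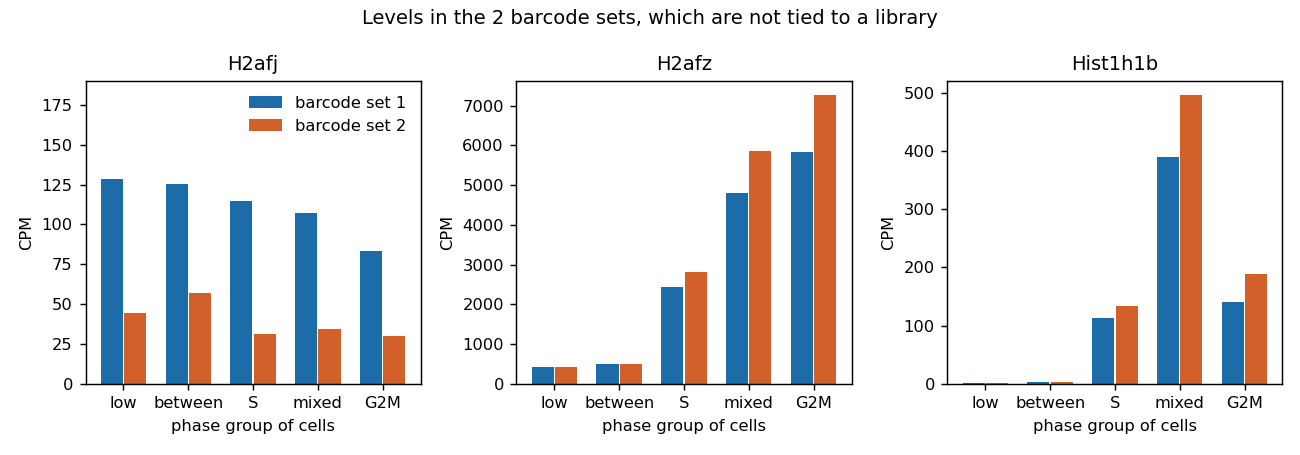
CPM of H2afj, H2afz and Hist1h1b (bars from 0) by group of cells in barcode set 1 (blue) and set 2 (orange). H2afj is higher in set 1 in every group, 128 against 44.6 in low-list cells, while H2afz and Hist1h1b are higher in set 2 in mixed and G2M-list cells.

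Genes that make and handle histones were followed through a list of 41. Of these, 26 were called higher in S-list, 28 in mixed and 24 in G2M-list cells against low-list cells, with 0, 1 and 1 lower (Lsm10 in both). Over all measured genes the shares called were 13.6%, 16.2% and 15.7% higher and 23.5%, 35.1% and 37.4% lower. By role, histone mRNA processing genes gave 5, 5 and 3 higher of 10, chaperones 16, 18 and 16 of 23, and H2A.Z exchange genes 4, 4 and 4 of 7. Slbp, whose protein binds the stem-loop, had 47.2 CPM in low-list, 285 in S-list, 453 in mixed and 143 in G2M-list cells. Its S-list level was 1.99 times its G2M-list level (1.83 to 2.16). Npat, a transcription coactivator of the histone clusters, had 14.8, 26.0, 28.6 and 19.7 CPM. Both were highest in mixed cells, as was Hist1h1b, but for Npat the mixed and S-list levels were close. Its ratios over low-list cells were 1.93 (1.54 to 2.41) and 1.75 (1.43 to 2.14) there.

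Chaperone genes were spread between these profiles. Hat1, which acetylates new H4, had 45.1, 364, 529 and 300.2 CPM, and Nasp, a chaperone of H1 and of H3 with H4, had 38.3, 296, 366 and 287. Anp32e, which removes H2A.Z from chromatin, had 117, 288, 437 and 552 CPM and was lower in S-list than in G2M-list cells (0.521), as was H2afz. Cenpa, the centromeric H3, had 11.996, 76.4, 301 and 1037 CPM, a G2M-list ratio of 86.5. Npm1 was 2.22-fold, 2.70-fold and 2.15-fold over low-list cells in the 3 groups. Nap1l1, Ssrp1, Set, Rbbp7 and Rbbp4 were called higher in each, from 1.68 to 3.51-fold, Ncl in mixed (1.77) and G2M-list cells (1.70), and Znhit1 and Nap1l4 in none. Set directly against G2M-list cells, S-list cells had Slbp, Lsm10, Casp8ap2, Chaf1a and Chaf1b higher and Anp32e, Cenpa, Ruvbl2, Hjurp and Ino80 lower; those not named earlier were chosen after their values were seen. Lsm10 and Casp8ap2 belong to histone mRNA processing, and Chaf1a and Chaf1b are subunits of the complex that lays down H3 and H4 behind the replication fork.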

How the data were processed

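The deposited values are raw UMI counts, one whole number for each gene in each barcode, made by the authors with Cell Ranger 2.1.1 on mm10, per the submitters' processing notes. Per the labels' protocols, libraries came from the Chromium Single Cell 3′ kit v1. Strand and multi-mapping settings are not given in the sources used here. Cells with fewer than 500 genes (635) or over 10% mitochondrial UMIs (912) were removed, 1407 together, as were doublets that Scrublet (scanpy 1.11.5) called within each barcode set, 188 (1.905%) in set 1 and 40 (1.173%) in set 2. How many doublets remained was not measured. Kept cells held 661 to 12425 UMIs.

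Counts were summed over cells and given as CPM with exact Poisson 95% intervals, and ratios carry exact conditional binomial intervals. Clusters came from 2000 variable genes without the members, 30 components, 15 neighbours and Leiden resolution 0.5 (leidenalg 0.10.2, python-igraph 0.11.9). A name needed at least 3 markers that stood at least 2 times above the other cells. That was not enough alone, since cluster 4 had 10 of 11 neuroblast markers raised and stayed unnamed. Markers were also counted among the 10 leading genes. Those of cluster 4 held 1 neuroblast marker, beside Cdc20, Ccnb2, Cdca8 and Knstrn of the G2M list. Further tools were Python 3.11.15, numpy 2.4.6, scipy 1.17.1, pandas 2.3.3, scikit-learn 1.9.0 and matplotlib 3.10.9. Of the 28692 gene IDs, 28339 (98.8%) were in GENCODE M21, which supplied gene positions and 3′ ends. RefSeq promoters matched 60 replication-dependent and 14 variant members.

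Members, gene lists and groups were chosen with earlier results of these data known. The text names members with at least 100 UMIs, and from the handling list Slbp, Npat, Cenpa and the 12 others with the most UMIs. Comparisons of mixed cells, of cluster 4 and between barcode sets were added after values were seen. Alternatives changed the cell filter, doublet removal, depth, list limits, scaling, clustering and call thresholds.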

Additional observations from a re-analysis of the deposited data

How the results depend on the processing

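Of the alternative values of the main results, 121 stayed within the limits set for an unchanged value and 89 moved. No summed ratio crossed 1. The replication-dependent ratio of S-list to low-list cells, 1.90, was 2.26 with cells thinned to 2000 UMIs, 1.56 with at least 2 list UMIs, 2.33 with at least 5, 2.12 with median scaling and 2.70 without Hist1h2bc. In the same order the mixed ratio, 3.76, was 4.13, 3.52, 4.12, 4.62 and 7.01 (3.95 in set 2). The G2M-list ratio, 2.29, was 2.49 thinned, 2.06 with at least 2, 2.84 with median scaling and 3.76 without Hist1h2bc. S-list over G2M-list, 0.828, was 0.908, 0.757, 0.976, 0.747 and 0.717. For variant members the S-list ratio, 2.28, was 2.32 with no cell filter, 2.85 thinned, 1.80 with at least 2, 2.89 with at least 5, 2.22 in set 1, 2.46 in set 2 and 2.54 with median scaling. The G2M-list ratio, 4.34, was 4.40, 4.67, 3.71, 4.62, 4.14, 4.94 and 5.38 in that order, and 4.27 with doublets kept. The mixed ratio, 3.80, was 4.30 thinned, 3.55, 4.12, 3.64, 4.29, 4.66 and, with doublets kept, 3.71. S-list over G2M-list, 0.526, was 0.610 thinned, 0.486, 0.625, 0.536, 0.499 and 0.475.

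Of counts, variant members higher in S-list cells went from 7 to 3 with at least 2 list UMIs or at least 2-fold. The 1 replication-dependent member higher in S-list than in G2M-list cells, Hist1h2al, was lost (0) when thinned (0.860, reversed from 1.90), with at least 5 list UMIs, in set 2, with at least 100 UMIs or with 2-fold, and with at least 5 list UMIs 1 variant member was higher, against 0. The lower call of H2afj in G2M-list cells was lost with median scaling (0.818), at least 2 list UMIs (0.728), no cell filter (0.699) or doublets kept (0.678), and was 0.680 in set 2 alone.

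Class sums moved with the clustering. With no cell filter the replication-dependent sum was 339.9 CPM in astrocyte-like (from 349.6) and 1408 in cycling-like cells (from 1279), and the variant sum 3355, 18159 and 7517 in astrocyte-like, cycling-like and OPC-like cells (from 3403, 16035 and 7795). At Leiden resolution 1.0 replication-dependent sums were 309.9, 1108 and 593.9 (OPC-like, from 639.3) and variant sums 3237, 18282 and 7371, with 5474 in neural progenitor-like cells (from 4473). There the names covered fewer cells than in the main setting. Astrocyte-like clusters held 1614 and 1412 cells (from 6008), cycling-like 1082 (from 2396) and neural progenitor-like 654 (from 2089). Clusters of 1435, 1277, 1260 and 1217 cells had no name. With the members allowed among variable genes, variant sums were 17373 in cycling-like and 5174 in neural progenitor-like cells. With both phase lists left out, they were 3453, 15077 and 5061 in astrocyte-like, cycling-like and neural progenitor-like cells, and the replication-dependent sum was 1027 in cycling-like cells. Among low-list cells, at resolution 1.0 the astrocyte-like ratios were 0.808 (from 0.962) and 0.859 (from 0.836), and with members allowed the variant ratio was 0.816. The variant ratio of neural progenitor-like cells, 1.19, was 1.33 and 1.38. Shares of cells with any replication-dependent UMI were 44.8%, 58.0%, 80.6% and 62.9% when thinned, in low-list, S-list, mixed and G2M-list cells. With no cell filter the sums of set 1 were 555.2 and 6870 CPM (from 567.3 and 7024) and those of set 2 555.4 and 7045 (from 575.7 and 7338); thinned variant sums were 7084 and 7482. No paired analysis was possible because the pooled matrix carries no replicate numbers. Depth limits the 41 replication-dependent members with 1 to 99 UMIs and the 15 with 0.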
